A study of Mus musculus with 12 samples.

Results

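The genes described here are 41 genes of cell division: mitotic cyclins and kinases, spindle checkpoint, chromosomal passenger, kinetochore, anaphase-promoting complex, mitotic kinesin and cytokinesis genes. They were taken by symbol from a table of 23184 gene symbols, and all 41 were among the 11774 genes tested. The RNA came from HL-1, an established mouse line of atrial heart muscle origin, in 3 groups of 4 libraries. The control cells (CON, labelled WT) were infected with viruses carrying the empty pCDH and lentiCRISPRv2 vectors. The knockdown cells (KD, labelled WDR62-) were infected with virus carrying a CRISPR guide RNA to Wdr62, and the re-expression cells (RE, labelled WDR62+) were KD cells that in addition received WDR62 (wild type, with a flag tag) from the pCDH vector. All groups thus carried virus and grew in medium with fetal bovine serum, and pCDH is named for CON and RE but not for KD. The labels do not say whether a group was 1 clone, nor whether its libraries are separate cultures, and the spread that p-values rest on may therefore be technical. The series set out to find genes related to the expression of Wdr62, which encodes a protein of centrosomes and spindle poles.

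Entry into mitosis is driven by CDK1 bound to cyclin A or cyclin B, after CDC25 phosphatases remove the inhibitory phosphates from CDK1. The NDC80 complex of the outer kinetochore then holds microtubules, the spindle checkpoint holds back the anaphase-promoting complex (APC/C) until every kinetochore is attached, and the APC/C with CDC20 destroys cyclin B and securin so that sister chromatids part. Kinesins, the central spindle and the contractile ring complete the division. Most of these genes are transcribed in the G2 and M phases of the cell cycle. In bulk libraries, fewer cells in those phases and less of these RNAs per cell cannot be told apart.

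Levels are in TPM (transcripts per 1000000), which are scaled to transcript length and can be compared between genes. Depth is unknown because each column sums to 1000000. Between 14060 and 14733 symbols were above 0 in a library, no 2 libraries held identical values, and CON 1 and CON 2 were the closest pair. Wdr62 itself lay between 3.38 and 7.45 TPM in CON, between 0.881 and 1.40 in KD and between 0.772 and 1.99 in RE. The exact two-sided permutation p was 0.0286 for KD against CON and for RE against CON, the smallest that 4 against 4 libraries can give. For RE against KD it was 0.886. This mouse symbol may leave the transcripts of the construct uncounted. The heart muscle label met mixed marker levels. Of 14 cardiac markers, 8 were under 1 TPM in every library, with Actc1 and Myl7 at 0 throughout and Myh6 at most 0.209 TPM, while Tnnt2 lay between 12.9 and 26.7 TPM. The summed level of the 14 ranged from 39.4 to 65.5 TPM in CON, from 48.9 to 64.6 in KD and from 56.6 to 91.0 in RE, and within it Nkx2-5 was at 3.60 to 8.50 TPM in CON, 9.79 to 14.8 in KD and 12.9 to 26.7 in RE, the only cardiac marker called in KD against CON. Of 9 fibroblast markers, Lum and Thy1 were at or near 0, and the summed level was 2778 to 4330 TPM in CON, 3046 to 4318 in KD and 1598 to 2592 in RE. Col3a1 made up most of that sum, and single fibroblast markers moved differently: Dcn lay at 23.6 to 81.4 TPM in CON, 4.10 to 6.18 in KD and 2.67 to 4.11 in RE, and Col1a1 at 78.3 to 107.6 and 41.8 to 64.5 TPM in CON and KD and at most 33.5 in RE, both called lower in KD, while Pdgfrb lay at 26.2 to 72.1, 66.4 to 120.7 and 38.8 to 71.5 TPM and was not called. All 6 endothelial markers stayed under 1 TPM in every library. Of 6 leukocyte markers, Ptprc, Adgre1 and Itgam were at or near 0, with summed levels of 4.71 to 8.29 TPM in CON, 12.6 to 18.4 in KD and 14.98 to 23.6 in RE. Lyz2 lay at 0.239 to 2.21 TPM in CON, 5.33 to 9.05 in KD and 8.58 to 13.5 in RE. Cd68 lay at 4.31 to 6.97 TPM in CON, overlapped that range in KD and RE, and reached 13.2 in RE. Csf1r was at most 0.722 TPM. Of 2 leukocyte markers tested, 1 was called higher in KD against CON and 1 in RE against CON. For 7 skeletal muscle markers the sums were 362 to 653, 292 to 389 and 330 to 549 TPM, mostly Des (321 to 632, 284 to 378 and 315 to 542 TPM). Of 5 tested, 4 were called lower in KD against CON and 3 in RE against CON (3.61% and 3.63% of all genes). Myod1 lay at 4.27 to 8.18 TPM in CON and at most 0.133 in KD and RE. Acta1 lay at 2.25 to 4.68, 0.197 to 0.450 and 0 to 1.52 TPM, and Chrna1 at 8.27 to 14.1, 3.56 to 4.16 and 3.01 to 4.59 TPM. The part of these markers in the results below was not tested.

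All 41 genes were well expressed, from Mastl at 24.1 ± 11.3 TPM to Pttg1 at 574 ± 108 TPM in CON (mean ± SD, n = 4, as for every mean below), and their CON means fell between percentiles 46.8 and 98.0 of all tested genes. Together they made up 0.395% to 0.533% of the TPM of a CON library, 0.282% to 0.352% of a KD library and 0.293% to 0.507% of an RE library, so the KD and CON ranges did not overlap and RE spanned both. In KD against CON, 40 of the 41 log2 fold changes were below 0 (6033 of all 11774 tested genes), with a median of -0.58 against -0.01 over all tested genes. The outer kinetochore gene Spc24, the passenger complex gene Birc5 and the phosphatase gene Cdc25c fell in KD, and no member rose. Those 3 of 41 passed the limma test at an adjusted p below 0.05, against 3.61% of all tested genes called lower, and 0 of 41 were called higher, against 6.6% of all genes. At an unadjusted p below 0.05, 21 were lower (10.2% of all tested genes) and 0 higher (13.6%). The 4 KD libraries lay below all 4 CON libraries for 12 of the 41 genes (7.02% of all tested genes): Ccna2, Cdc25c, Ttk, Aurkb, Birc5, Cdca8, Spc24, Spc25, Cdc20, Ube2c, Racgap1 and Nusap1. Fzr1 was the exception in direction, at 0.11 ± 0.13 (SE, adjusted p = 0.738).

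**Figure D1:**
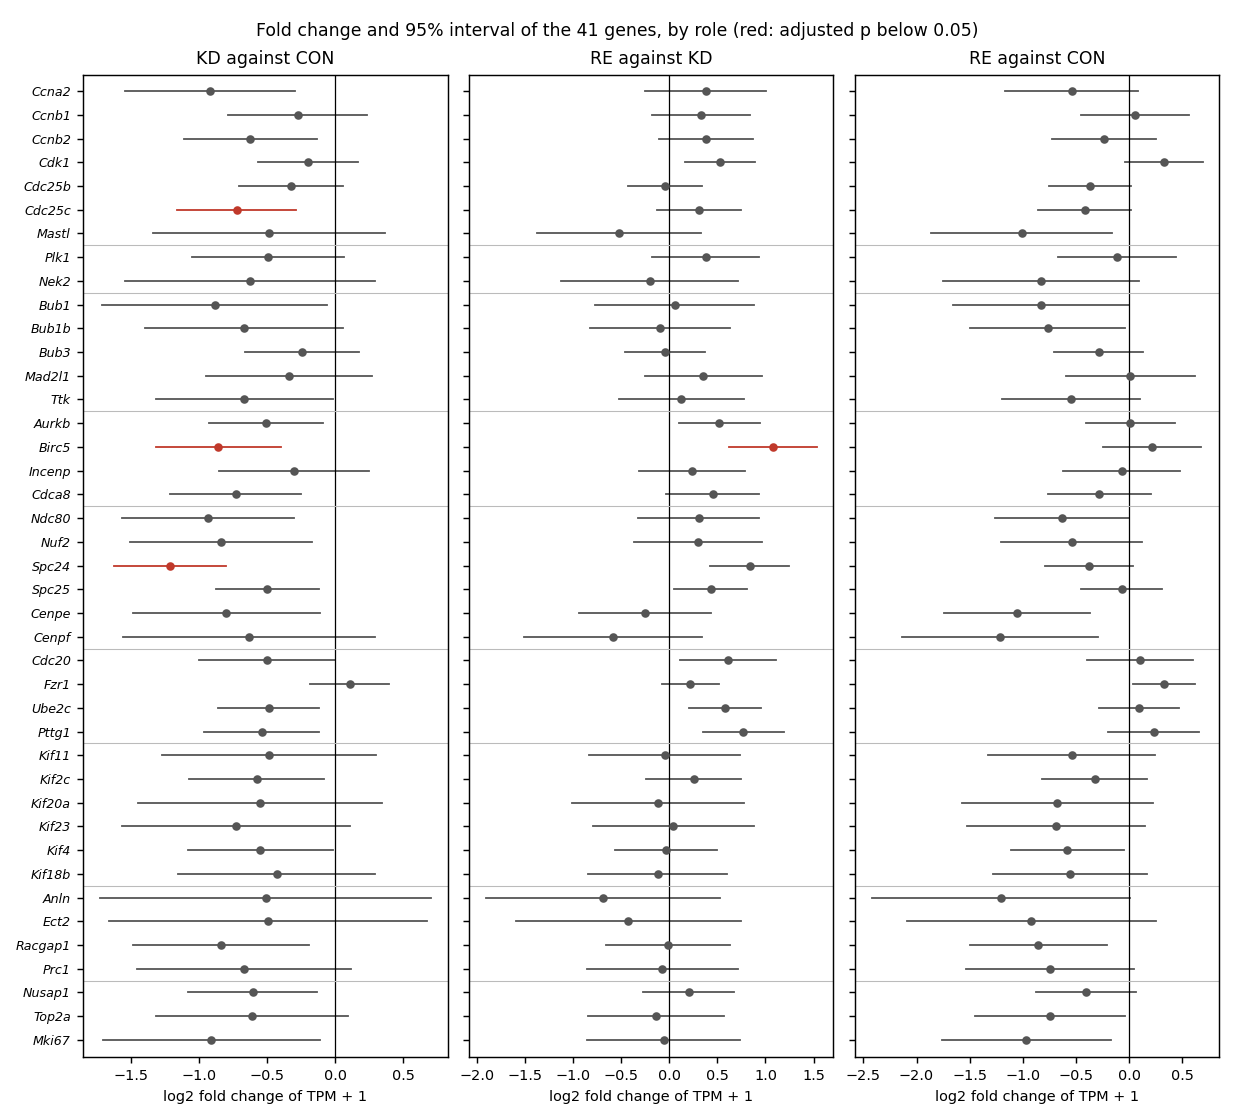
Log2 fold change on the TPM + 1 scale (x axis) of each of the 41 genes (y axis, in role groups divided by grey lines) for KD against CON, RE against KD and RE against CON. Points are limma estimates, lines their 95% intervals, and red marks an adjusted p below 0.05: Spc24, Birc5 and Cdc25c in the first panel and Birc5 alone in the second; Fzr1 is the single point to the right of 0 in KD against CON.

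CON 4 stood apart from the other control libraries. It was the lowest CON library for 34 of the 41 genes, and RE 3 was the lowest RE library for 38. Both, and RE 1, were low in long transcripts in general. Over all tested genes with transcripts above 3500 bases, the median deviation from a gene's mean was -0.73 in CON 4 against 0.40 to 0.59 in CON 1 to CON 3, and -0.62 in RE 1 and -0.91 in RE 3 against -0.07 in RE 2 and in RE 4. Leaving out the lowest CON library raises the lowest CON value by construction, and CON 4 was the lowest for most of these same genes. Counts without it are therefore descriptions and no separate support for a fall. Leaving out RE 1 and RE 3 keeps only RE 2 and RE 4 in RE, and RE 4 was the highest RE library for 36 of the 41 genes. Leaving out RE 3 likewise raises the lowest RE value by construction for the genes where it was lowest. Counts without RE 3 are therefore also descriptions and no separate support for a rise in RE. Without CON 4, the KD libraries lay below the remaining CON libraries for 37 of 41 genes (31.2% of all tested genes), the others being Ccnb1, Cdk1, Fzr1 and Pttg1. The limma call then covered 21 of 41 as lower in KD (11% of all genes). Also without CON 4, 5 were called higher in RE than in KD (3.85%), with the median fold unchanged at 0.20. CON 4 is in neither of those groups and enters that test only through the shared estimate of spread. In RE against CON without CON 4, 21 were called lower (42%) and 1 higher (10.8%). Without CON 4, RE 1 and RE 3, the call of lower in KD covered 37 of 41 (25.1% of all genes). Outside it were Ccnb1, Cdk1, Fzr1 and Pttg1 again. With a smooth trend on transcript length removed from each library it covered 26 of 41 (10.5% of all genes). With array weights, which let a library of higher estimated noise count for less, the call covered 40 of 41 (32.5% of all genes). The median fold was then -0.87, against -0.58 as reported and -0.83 without CON 4. This count may therefore not be separate from that without CON 4. The weights of single libraries are not given here. Leaving out CON 1, KD 1, KD 2 or KD 4 in turn left 1 member called (2.28%, 2.21%, 2.05% and 2.23% of all genes, in that order). Leaving out RE 3 gave 10 (4.96%) with the median fold unchanged at -0.58. RE 3 is in neither group of that comparison, and only the shared estimate of spread changed. Spc24 kept its call in each of the 12 leave-one-library-out fits (highest adjusted p 0.00726).

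Promoter sequences were examined because 40 of 41 members lay on the same side of 0 in KD against CON. Many genes of the G2 and M phases carry a cell cycle genes homology region (CHR), which binds the DREAM complex and its activating counterpart with MYBL2, and upstream CCAAT boxes, which bind NF-Y. Windows from 250 bases before to 50 after the RefSeq start (GRCm38.p6) matched 35 of the 41 genes, all but Ccna2, Cdc25c, Aurkb, Incenp, Spc24 and Kif20a. The letters searched on both strands were TTTGAA or TTCGAA for CHR, CCAAT for the NF-Y box, and TTTGGCGC or TTTCCCGC for E2F. No motif's letters contain another's. CHR letters occurred in 25 of 35 windows (71.4%, against 21.7% of 27025 genes) and CCAAT in 27 (77.1% against 41.1%). Both occurred in 22 (62.9% against 8.61%), CCAAT alone in 5, CHR alone in 3 and neither in 5, which were Birc5, Mad2l1, Nuf2, Pttg1 and Nusap1. E2F letters occurred in 0 of 35, against 1.80% of all genes. A CHR match that started 15 to 45 bases after a CCAAT box, a spacing chosen after the positions were seen, occurred in 17 of 35 windows (48.6%) against 1.46% of all genes. The 22 genes with both motifs had a median log2 fold change of -0.58 in KD against CON, and the other 13 matched genes also had -0.58. The windows below show Birc5 as a gene that fell without either motif, Ccnb2, Plk1 and Cdc20 as genes with both, and Fzr1 as the gene above 0, with a CCAAT box on the other strand and no CHR match. Birc5 was shown because it was itself called in KD against CON, and the others were picked after the values were seen. Capitals mark the matches, and ATTGG is CCAAT read on the opposite strand.
Birc5 (chr11:117848987-117849286, plus strand): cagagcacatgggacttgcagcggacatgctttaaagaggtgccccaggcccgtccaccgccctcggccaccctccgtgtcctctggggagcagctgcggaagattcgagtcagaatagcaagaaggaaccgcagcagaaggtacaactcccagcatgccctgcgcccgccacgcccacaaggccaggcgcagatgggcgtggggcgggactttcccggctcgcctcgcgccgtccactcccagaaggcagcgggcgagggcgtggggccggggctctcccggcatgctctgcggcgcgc
Ccnb2 (chr9:70421505-70421804, minus strand): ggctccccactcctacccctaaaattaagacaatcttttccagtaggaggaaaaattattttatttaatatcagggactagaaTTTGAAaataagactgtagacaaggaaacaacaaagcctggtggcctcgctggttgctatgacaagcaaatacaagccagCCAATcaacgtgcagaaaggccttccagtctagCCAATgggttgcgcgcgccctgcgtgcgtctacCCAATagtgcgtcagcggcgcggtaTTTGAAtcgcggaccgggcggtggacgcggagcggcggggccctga
Plk1 (chr7:122159185-122159484, plus strand): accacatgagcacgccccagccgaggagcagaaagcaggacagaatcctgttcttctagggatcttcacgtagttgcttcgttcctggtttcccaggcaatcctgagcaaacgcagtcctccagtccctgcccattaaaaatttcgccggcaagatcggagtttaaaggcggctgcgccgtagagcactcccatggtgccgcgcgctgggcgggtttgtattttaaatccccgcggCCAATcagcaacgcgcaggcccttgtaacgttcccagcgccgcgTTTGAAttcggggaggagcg
Cdc20 (chr4:118437294-118437593, minus strand): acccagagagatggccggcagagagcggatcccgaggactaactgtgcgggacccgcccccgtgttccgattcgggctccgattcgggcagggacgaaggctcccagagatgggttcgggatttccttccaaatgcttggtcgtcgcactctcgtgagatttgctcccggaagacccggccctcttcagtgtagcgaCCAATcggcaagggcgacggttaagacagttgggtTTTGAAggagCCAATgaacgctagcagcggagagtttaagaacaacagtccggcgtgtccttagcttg
Fzr1 (chr10:81378321-81378620, minus strand): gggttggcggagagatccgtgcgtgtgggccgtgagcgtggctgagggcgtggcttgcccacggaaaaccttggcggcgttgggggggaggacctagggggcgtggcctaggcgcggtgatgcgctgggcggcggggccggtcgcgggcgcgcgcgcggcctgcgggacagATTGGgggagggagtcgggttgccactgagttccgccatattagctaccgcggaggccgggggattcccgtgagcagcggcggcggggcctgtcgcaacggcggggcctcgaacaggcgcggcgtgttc
In Ccnb2 and Plk1 the capitals near the right end are a CCAAT box followed by TTTGAA, and in Cdc20 TTTGAA lies between a pair of CCAAT boxes. A match is only a run of letters in this window and depends on the annotated start.

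**Figure D2:**
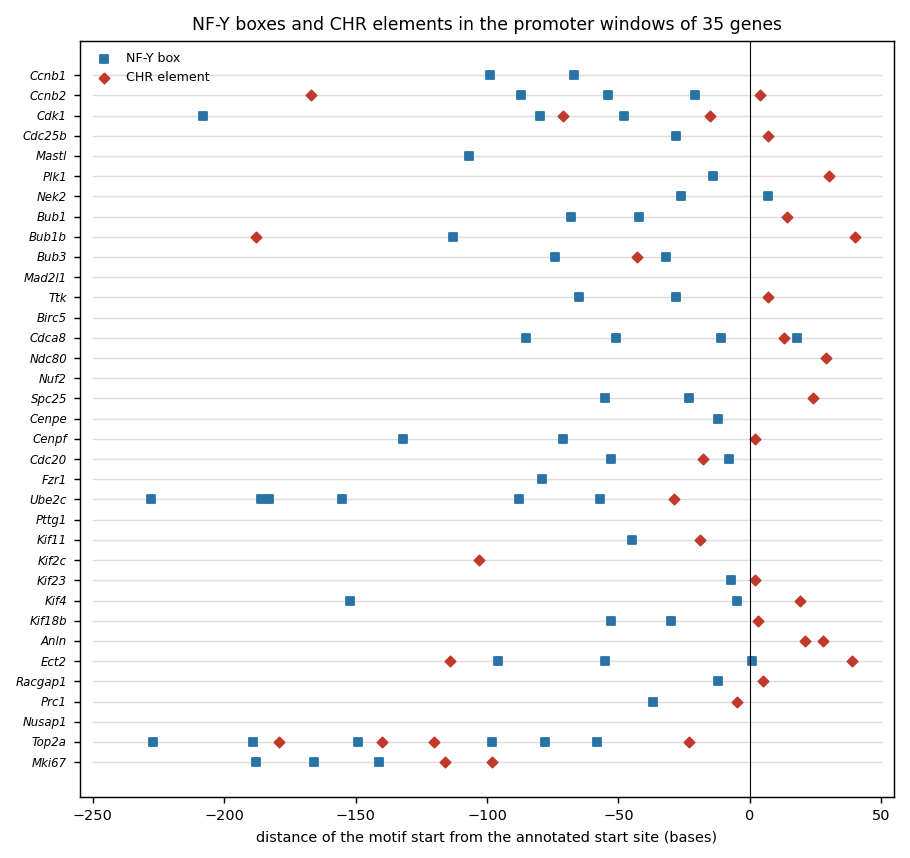
Start of each NF-Y box (blue squares, letters CCAAT on either strand) and CHR element (red diamonds) relative to the annotated start site at 0 (x axis, bases) for the 35 genes with a window (y axis). In 17 genes a red diamond starts 15 to 45 bases to the right of a blue square, and 5 rows, among them Birc5, hold no symbol.

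Among the cyclins, CDK1 and the genes that switch it on, 1 of 7 passed the test in KD against CON and all 7 folds were below 0 (median -0.48). Cdc25c, a phosphatase that activates CDK1, stood at 35.4, 39.0, 33.0 and 29.6 TPM in CON 1 to CON 4, at 19.4, 19.3, 23.8 and 18.9 in KD and at 26.5, 29.6, 16.5 and 31.5 in RE. The KD libraries sat below every CON library, while RE ran from below KD up into the CON range. Cdc25c fell in KD by 0.72 on the log2 scale (SE 0.20, adjusted p = 0.0392), and the call was lost in 7 of 12 leave-one-library-out fits (highest adjusted p 0.119, without CON 2). Among these was the fit without RE 1, which is in neither group and leaves the fold unchanged. Neither RE against KD (0.31 ± 0.20) nor RE against CON (-0.42 ± 0.20) passed. Cdk1, the kinase itself and the most abundant of the 7, stood at 211, 204, 192 and 208 TPM in CON, at 171, 153, 204 and 183 in KD and at 304, 239, 183 and 320 in RE. KD 3 lay inside the CON range, and 3 RE libraries lay above every CON library. Neither the KD difference (-0.20 ± 0.17) nor that of RE against KD (0.53 ± 0.17, adjusted p = 0.118) passed. Ccna2, cyclin A2, went from 149 ± 39.0 TPM in CON to 76.3 ± 6.77 in KD without overlap (-0.92 ± 0.29, adjusted p = 0.0646); 10.4% of its exon bases lie opposite those of Exosc9. Of the B cyclins, Ccnb2 had a fold of -0.62 ± 0.22 and Ccnb1 one of -0.28 ± 0.23, and Ccnb1 shares 51.7% of its transcript with a near-identical pseudogene, so its value is uncertain. Cdc25b, a second CDC25 phosphatase, had -0.33 ± 0.18, and Mastl, the kinase that restrains the opposing phosphatase PP2A, -0.48 ± 0.39. Without CON 4, 4 of the 7 were called lower in KD (11% of all genes), and 4 with the length trend removed (10.5%). The count was 5 without CON 4, RE 1 and RE 3 (25.1%).

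The mitotic kinase genes Plk1 and Nek2 did not pass in any comparison. Plk1, which acts at centrosomes, kinetochores and the central spindle, stood at 116, 108, 104 and 71.3 TPM in CON, at 63.9, 62.9, 76.4 and 75.4 in KD and at 96.4, 107, 50.3 and 128 in RE. CON 4 lay among the KD libraries, and RE 3 below them all. Its KD fold was -0.49 ± 0.26 (adjusted p = 0.275). Without CON 4, RE 1 and RE 3, Plk1 was called lower in KD and was 1 of 2 members called higher in RE than in KD, by 0.75 ± 0.13 (adjusted p = 0.0392), the other being Cdca8 (0.136% of all genes). CON 4 and RE 3 were the lowest Plk1 libraries of their groups, so leaving them out widens both differences by construction. Both calls are descriptions and no separate support. Nek2, a kinase of centrosome separation, had a KD fold of -0.63 ± 0.42. Without CON 4, 0 of the 2 were called lower in KD (11% of all genes), and 1 with the length trend removed (10.5%). The count was 2 without CON 4, RE 1 and RE 3 (25.1%).

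The 5 spindle checkpoint genes had a median fold of -0.67 in KD, and none passed. Bub3, a WD40 protein that carries BUB1 and BUBR1 to kinetochores and the most abundant of the 5, stood at 198, 199, 210 and 142 TPM in CON, at 151, 157, 158 and 160 in KD and at 167, 166, 99.9 and 191 in RE. CON 4 and RE 3 were below all KD libraries, which lay close together. The folds were -0.24 ± 0.19 for Bub3, -0.89 ± 0.38 for the kinase gene Bub1, -0.67 ± 0.33 for Bub1b (BUBR1), -0.67 ± 0.30 for Ttk (the kinase MPS1) and -0.34 ± 0.28 for Mad2l1, whose product MAD2 binds CDC20. Ttk alone of these did not overlap between KD and CON, though only just, with KD up to 22.6 TPM and CON down to 22.7. Mad2l1 shares 26.3% of its transcript with a near-identical gene model. Without CON 4, 2 of the 5 were called lower in KD (11% of all genes), and 3 with the length trend removed (10.5%). The count was 5 without CON 4, RE 1 and RE 3 (25.1%).

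Of the 4 chromosomal passenger genes, Birc5 fell in KD against CON and rose in RE against KD, and it was the only member called in 2 comparisons. BIRC5 (survivin) binds INCENP and borealin and places Aurora B at centromeres. Birc5 stood at 282, 261, 236 and 355 TPM in CON, at 135, 125, 213 and 157 in KD and at 422, 246, 292 and 372 in RE. The KD libraries lay below every CON and every RE library, and CON and RE overlapped. In KD against CON the fold was -0.86 ± 0.21 (adjusted p = 0.0214) and in RE against KD 1.08 ± 0.21 (adjusted p = 0.0376, where 0.187% of all tested genes were called higher). These comparisons share the KD libraries. RE against CON gave 0.22 ± 0.21 with a 95% interval of -0.24 to 0.68. The fall lost its call in 4 of 12 fits without 1 library (adjusted p up to 0.0772, without KD 2). It also lost it with median-of-ratios scaling (adjusted p = 0.0945). The rise lost its call in 9 of 12 fits without 1 library (adjusted p up to 0.166, without KD 1). Of these, the fits without CON 1, CON 2 or CON 3 left the fold of the rise unchanged and altered only the shared estimate of spread. The rise also lost its call with median-of-ratios scaling, with KD and RE fitted alone, without CON 4, RE 1 and RE 3 (0.97, adjusted p = 0.0973), and with the replicate block and the length trend removed. Aurkb, the Aurora B kinase, went from 74.2 ± 6.79 TPM in CON to 52.0 ± 6.88 in KD and 76.7 ± 20.9 in RE, and Cdca8 (borealin) from 100 ± 14.7 to 59.6 ± 4.49 and 85.2 ± 26.0. Neither passed in KD (-0.51 ± 0.19, adjusted p = 0.123, and -0.73 ± 0.22, adjusted p = 0.0567), although their KD and CON libraries did not overlap. Incenp, the scaffold, had a fold of -0.30 ± 0.25. Without CON 4, 2 of the 4 were called lower in KD (11% of all genes), and 3 with the length trend removed (10.5%). The count was 4 without CON 4, RE 1 and RE 3 (25.1%).

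The outer kinetochore had the most negative median of the 9 role groups in KD, -0.82 over 6 genes. Spc24, a subunit of the NDC80 complex (chromosome 9, 21755442 to 21760303, minus strand, GRCm38), stood at 59.0, 58.7, 52.7 and 62.4 TPM in CON, at 24.1, 20.4, 27.6 and 26.4 in KD and at 60.1, 40.2, 32.1 and 50.4 in RE. Each KD library was below each CON and RE library, and 2 of the RE libraries reached no higher than 40.2 TPM. Spc24 fell by 1.21 on the log2 scale (SE 0.19, adjusted p = 0.00142), the only member change of at least 1 in KD. RE against KD gave 0.84 ± 0.19 (adjusted p = 0.0615) and RE against CON -0.38 ± 0.19 (adjusted p = 0.199). Spc25, its partner in the complex, stood at 99.9, 94.9, 86.2 and 79.7 TPM in CON, at 66.2, 51.4, 71.5 and 65.4 in KD and at 98.0, 72.6, 68.4 and 110 in RE. Its KD libraries also lay below CON, by a smaller step (-0.50 ± 0.17, adjusted p = 0.0940). The other NDC80 subunits, Ndc80 and Nuf2, had folds of -0.94 ± 0.29 (adjusted p = 0.0614) and -0.84 ± 0.31. Cenpe, a kinetochore kinesin, had -0.80 ± 0.32 in KD and -1.06 ± 0.32 in RE against CON (adjusted p = 0.0724), and Cenpf, a large kinetochore protein, -0.63 ± 0.43 and -1.22 ± 0.43. Without CON 4, all 6 were called lower in KD, where 11% of all genes were. With the length trend removed 5 were (10.5%), and without CON 4, RE 1 and RE 3 all 6 (25.1%).

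The transcripts of Spc24 and Spc25 have nearly the same length (1366 and 1352 bases), and their ratio within each library was therefore taken as well. The pair was chosen after the values were seen and because Spc24 had fallen, so the ratio is given as a description and no separate support. Its exact permutation test did not pass (adjusted p = 0.129 for KD against CON and for RE against KD, Benjamini-Hochberg over 9 ratio tests). The ratio was 0.590, 0.619, 0.612 and 0.783 in CON, 0.363, 0.396, 0.387 and 0.404 in KD and 0.613, 0.554, 0.469 and 0.460 in RE. The KD ratios lay below all others. The log2 ratio differed by -0.71 between KD and CON and by 0.41 between RE and KD in the group means. The ratio of Birc5 (947 bases) to Ube2c (967 bases) differed by -0.37 in KD against CON and by 0.49 in RE against KD with overlapping libraries. That of Cdc25c (1945 bases) to Aurkb (1950 bases) differed by -0.21 in KD against CON and again by -0.21 in RE against KD. It differed by -0.43 in RE against CON, with overlapping libraries in each comparison.

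The APC/C activators, its E2 enzyme and its target securin formed the only group with a fold above 0 in KD. Fzr1 (CDH1), which activates the APC/C in late mitosis and G1, stood at 62.8, 58.0, 59.6 and 73.2 TPM in CON, at 67.5, 60.5, 72.4 and 72.4 in KD and at 89.6, 69.5, 74.1 and 86.0 in RE. The 3 groups overlapped in part, with the highest values in RE. Its 95% interval in KD against CON was -0.19 to 0.40. Cdc20, the activator of metaphase, went from 141 ± 5.46 TPM in CON to 101 ± 24.9 in KD and 158 ± 47.0 in RE, with KD 3 at 134 TPM just under the lowest CON value of 135. Pttg1 (securin), the most abundant member, stood at 514, 543, 505 and 734 TPM in CON, at 308, 322, 552 and 422 in KD and at 790, 587, 675 and 626 in RE. KD 3 reached into the CON range, and every RE library was above every KD library. Its KD fold was -0.54 ± 0.19 (adjusted p = 0.107), and RE against KD gave 0.77 ± 0.19 (adjusted p = 0.0738). Ube2c, the E2 that loads ubiquitin on APC/C targets, had a KD fold of -0.49 ± 0.17 and an RE against KD fold of 0.58 ± 0.17, with KD below both other groups in every library; 22.8% of its exon bases lie opposite those of Tnnc2, which stood at 1.35 TPM. The median of the 4 genes in RE against KD was 0.60. Without CON 4, 0 of the 4 were called lower in KD (11% of all genes), and 2 with the length trend removed (10.5%). The count was 2 without CON 4, RE 1 and RE 3 (25.1%).

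All 6 mitotic kinesins had folds below 0 in KD (median -0.55), none passed, and in RE against KD they centred on -0.04. Kif20a, a kinesin of cytokinesis and the most abundant of them, stood at 151, 149, 129 and 50.8 TPM in CON, at 65.3, 72.3, 91.9 and 71.7 in KD and at 71.0, 87.1, 29.9 and 120 in RE. CON 4 and RE 3 were below all KD libraries, and the other CON libraries above all of them. The fold in KD was -0.56 ± 0.41, and 31.8% of Kif20a exon bases lie opposite those of Cdc23. Kif11, the spindle motor Eg5, had -0.49 ± 0.36, the microtubule depolymerase Kif2c -0.58 ± 0.23, the centralspindlin motor Kif23 -0.73 ± 0.38, the chromosome motor Kif4 -0.55 ± 0.24 and Kif18b, which acts on astral microtubules, -0.43 ± 0.33. Kif4 lies opposite Pdzd11, which had 179 TPM against its own 33.5, over 15.1% of its exon bases. Without CON 4, 3 of the 6 were called lower in KD (11% of all genes), and 3 with the length trend removed (10.5%). Without CON 4, RE 1 and RE 3, all 6 were called lower in KD, where 25.1% of all genes were.

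The central spindle and contractile ring genes also lay below 0 in KD (median -0.59), and 0 of 4 passed. Racgap1, the GTPase-activating partner of KIF23 in centralspindlin, stood at 353, 364, 321 and 171 TPM in CON, at 166, 157, 164 and 159 in KD and at 179, 179, 85.8 and 237 in RE. CON 4 was close to the KD libraries, which spanned only 157 to 166 TPM, and RE 3 lay below them all. The fold was -0.84 ± 0.30 in KD (adjusted p = 0.101) and -0.01 ± 0.30 in RE against KD. Anln (anillin), a scaffold of the contractile ring, ranged from 39.4 to 210 TPM in CON, and its fold of -0.51 ± 0.56 had the widest error of the 41. Ect2, the exchange factor that activates RhoA, had -0.49 ± 0.54, and Prc1, which bundles midzone microtubules, -0.67 ± 0.36, with 21.8% of its exon bases opposite those of Rccd1. Without CON 4, 1 of the 4 was called lower in KD (11% of all genes), and 2 with the length trend removed (10.5%). The count was 4 without CON 4, RE 1 and RE 3 (25.1%).

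The remaining 3 members belong to mitotic chromosomes and the spindle. Top2a, which untangles sister chromatids, stood at 282, 269, 216 and 102 TPM in CON, at 172, 130, 110 and 125 in KD and at 110, 137, 77.0 and 180 in RE. Its CON 1 to CON 3 values were above all KD and RE values, and CON 4 was below all of KD. The KD fold was -0.61 ± 0.32 (adjusted p = 0.291). Mki67, the surface protein of mitotic chromosomes widely used as a marker of cycling cells, went from 92.6 ± 43.1 TPM in CON to 44.3 ± 7.89 in KD and 44.1 ± 16.1 in RE (KD fold -0.91 ± 0.37, adjusted p = 0.148). Nusap1, which crosslinks spindle microtubules, had a KD fold of -0.61 ± 0.22 (adjusted p = 0.105) with KD below CON in every library. All 3 were called lower in KD with the length trend removed, where 10.5% of all genes were. The same held without CON 4 (11%) and without CON 4, RE 1 and RE 3 (25.1%).

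**Figure D3:**
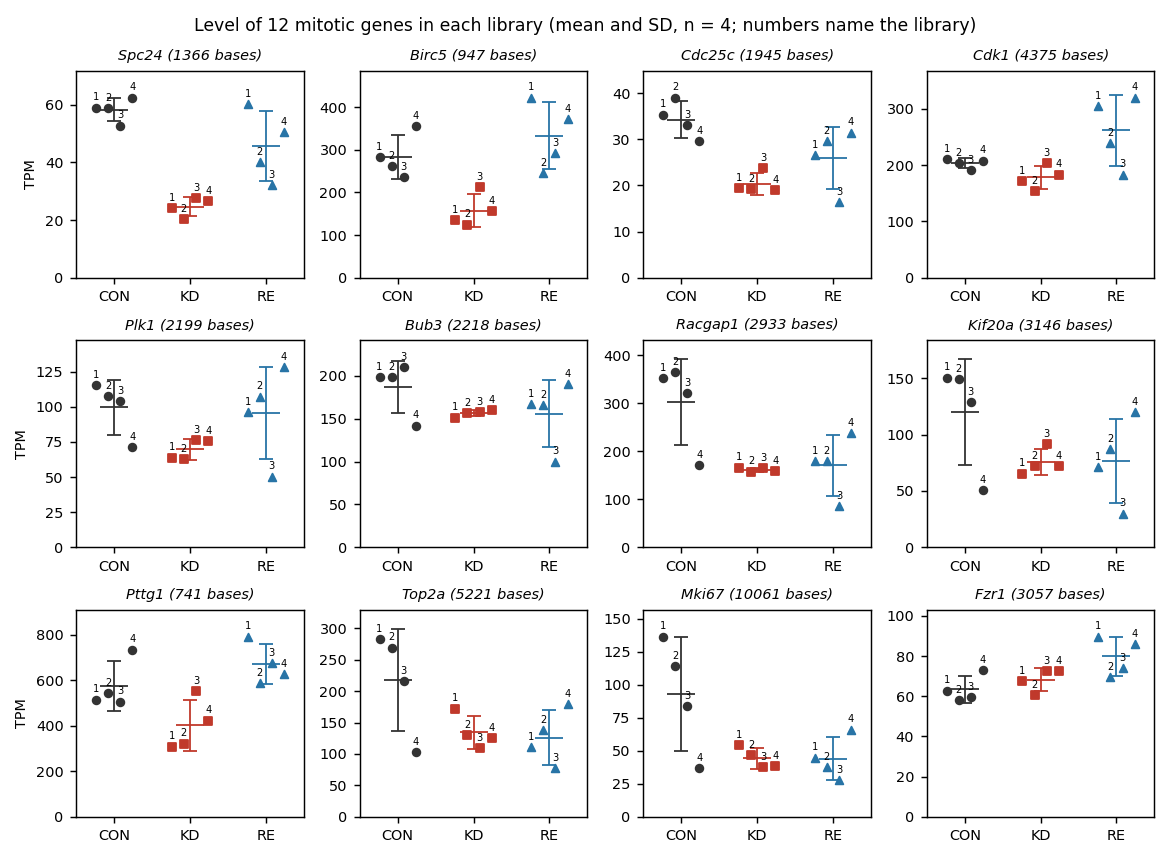
TPM (y axis, from 0) of 12 of the genes in each of the 4 CON, KD and RE libraries (x axis, numbers name the library), with the group mean and SD; transcript lengths stand in the titles. Spc24 and Birc5 show KD below both other groups, Racgap1, Kif20a and Top2a show CON 4 apart from CON 1 to CON 3, and Fzr1 has its KD libraries within the CON range.

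RE was compared with KD to ask which members changed when WDR62 was put back. Birc5 rose, as above, and 0 of 41 were called lower (0.858% of all tested genes). At an unadjusted p below 0.05, 8 were higher (6.36% of all tested genes) and 0 lower (21.6%). The folds were above 0 for 24 genes and below 0 for 17, with a median of 0.20 against -0.29 over all tested genes. Of all 11774 tested genes, 3299 were above 0 and 8472 below. With median-of-ratios scaling the median of all genes moved to 0.00 and that of the members to 0.52, with 37 members above 0 and 4 below. RE 3 and RE 4 moved the median of the members most among single libraries: without RE 3 it was 0.39 with 37 folds above 0, and without RE 4 it was 0.03 with 21 above 0. It was 0.13 without KD 2. Every RE library exceeded every KD library for Birc5, Spc24, Ube2c and Pttg1 (3.47% of all tested genes), and without RE 1 and RE 3 for 24 of 41 (9.69%). That second count is a description and no separate support for a rise. RE 3 was the lowest RE library for 38 of the 41, so leaving it out raises the lowest RE value by construction. RE was then compared with CON, and 0 of 41 passed in either direction by limma (2.7% of all genes were called higher and 3.63% lower). No member's RE libraries lay wholly above or wholly below CON (4.46% and 4.76% of all genes). At an unadjusted p below 0.05, 1 was higher (8.22% of all tested genes) and 10 lower (20.2%). Folds were below 0 for 32 of 41 members and for 8158 of all 11774 tested genes. The median was -0.54 against -0.27 over all tested genes. That median was -0.24 without RE 3, with 29 folds below 0, and -0.23 with median-of-ratios scaling, with 26 below 0 and the median of all genes at 0.01. The comparisons share libraries, so a low KD value enters both of the comparisons with KD. Without CON 4, RE 1 and RE 3, 12 members were called lower in RE than in CON (24% of all genes) and 1 higher (8.13%), with a median of -0.37.

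The folds in RE against KD differed with transcript length. Of the 11 members with transcripts under 2000 bases, 11 had a fold above 0 in RE against KD (median 0.52, against 0.08 for all tested genes of that length). Of the 19 with 2000 to 3500 bases, 12 were above 0 (median 0.12, against -0.29), and of the 11 longer ones only Cdk1 was (median -0.14, against -0.64). In RE against CON the medians were 0.01, -0.54 and -0.92, against 0.07, -0.27 and -0.61 for all genes of those lengths. In KD against CON they were -0.54, -0.61 and -0.55, against -0.04 to 0.00 for all genes of those lengths, and 8 of the 11 short members had KD libraries wholly below CON, as did 12.6% of all tested genes of that length. With the length trend removed, the median of the 41 was -0.59 in KD against CON, 0.50 in RE against KD and -0.17 in RE against CON. In RE against KD, 40 of 41 folds were then above 0, Anln being the other, and 16 of the 17 that had been below 0 had turned. The median over all tested genes also moved, from -0.29 to 0.02, and how many of all genes turned was not counted. That processing called 4 members higher in RE than in KD (0.917% of all genes), which were Spc24 (0.80 ± 0.15, adjusted p = 0.0293), Birc5, Aurkb and Kif4, and none in RE against CON (5.33% of all genes lower, 7.93% higher). Medians of the kinesin, central spindle, and chromosome groups in RE against KD changed sign from below to above 0 under it, and also with median-of-ratios scaling.

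**Figure D4:**
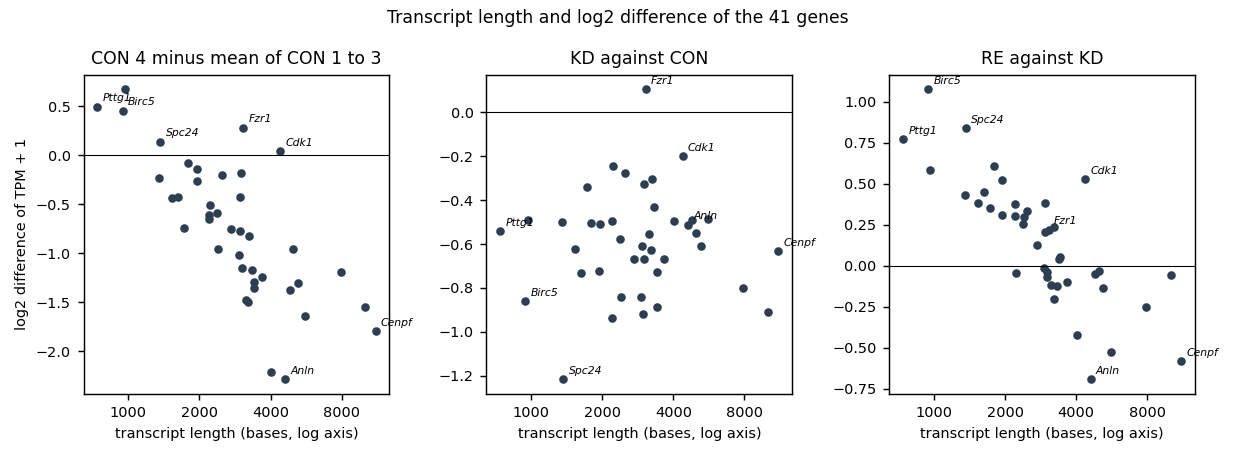
Log2 difference on the TPM + 1 scale (y axis) against transcript length in bases (x axis, log scale) for the 41 genes, for CON 4 minus the mean of CON 1 to CON 3, KD against CON and RE against KD. In RE against KD all 11 genes under 2000 bases lie above 0 and, of the 11 over 3500 bases, only Cdk1 does; in KD against CON only Fzr1 lies above 0.

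**Figure D5:**
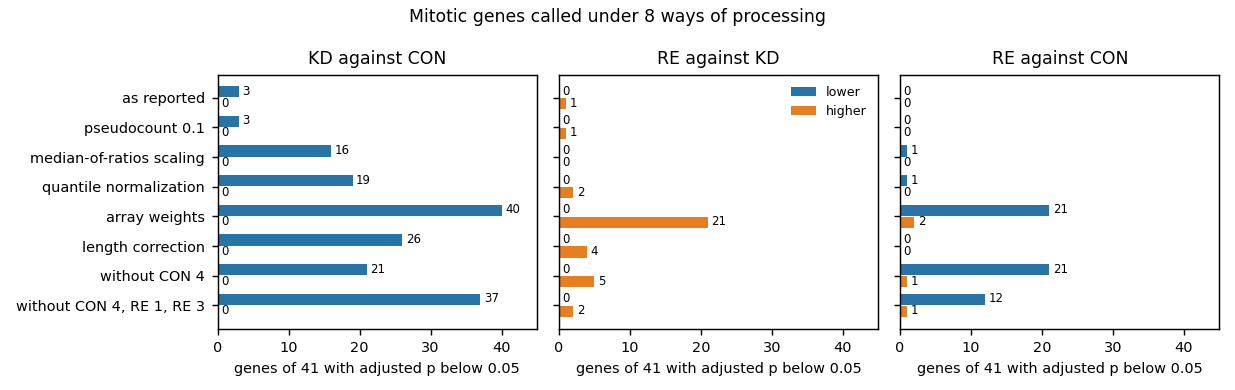
Number of the 41 genes with an adjusted p below 0.05 (x axis) under 8 ways of processing (y axis) in the 3 comparisons, lower in blue and higher in orange. The count lower in KD than in CON runs from 3 as reported to 40 with array weights, which let noisier libraries count for less. None of the 8 calls a member higher in KD.

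Other genes of division were set beside the members in 8 lists of 126 genes: condensin, cohesin, APC/C subunits, centromere and other kinetochore genes, other kinesins, abscission genes, CDK1 and Aurora A regulators, and transcription factors of mitotic genes. In KD against CON 103 of the 126 folds were below 0 (6033 of all 11774 tested genes), with a median of -0.37. Of the 126, 2 were called lower and 1 higher, against 3.61% and 6.6% of all tested genes. Ska1, of the SKA complex that couples NDC80 to microtubules, fell from 13.0, 12.7, 12.1 and 14.1 TPM in CON to 4.16, 3.91, 8.35 and 5.09 in KD (-1.18 ± 0.24, adjusted p = 0.00782) and stood at 15.6, 8.07, 11.6 and 12.3 in RE. Pmf1, of the MIS12 complex on which the NDC80 complex sits, fell from 206, 207, 201 and 184 TPM to 65.6, 67.2, 141 and 99.2 (-1.16 ± 0.27, adjusted p = 0.0166) and stood at 248, 137, 116 and 206 in RE. KD 3 was the highest KD library for both genes, and the KD and CON libraries did not overlap. Chmp4c, of the abscission machinery, rose from between 0.102 and 0.912 TPM to between 1.37 and 4.59 TPM (1.45 ± 0.34, adjusted p = 0.0156), a low level throughout. In RE against KD the histone-fold kinetochore gene Cenpw rose, from between 6.27 and 9.40 TPM to between 13.6 and 18.9 (0.99 ± 0.20, adjusted p = 0.0423), alone of the 126. None passed in RE against CON.

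By list, folds in KD against CON were below 0 for 26 of 27 centromere and kinetochore genes (median -0.69), 8 of 8 condensin genes (-0.61) and 7 of 7 other kinesins (-0.55). They were below 0 for 13 of 15 cohesin genes (-0.37), 12 of 16 CDK1 and Aurora A regulators (-0.39) and 12 of 16 APC/C subunits (-0.12). For abscission genes the count was 9 of 15 (-0.10) and for the transcription factors 16 of 22 (-0.15). The member groups had medians from -0.82 for the outer kinetochore to -0.48 for the cyclins and CDK1.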

How the data were processed

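RNA was sequenced from 12 libraries of HL-1 cells, 4 per group. The deposited values are TPM, and the submitters' processing notes list Trim Galore 0.6.6, TopHat2 2.1.1, Cufflinks 2.2.1 and the mm10 build. The sources used here do not say how the authors got TPM with these, or if counting used strand. The 4 control columns are named WT and carry no sample number, and CON 1 to CON 4 are their column numbers. Genes averaging 1 TPM or more entered the test on log2(TPM + 1), a scale that understates the change of low genes, with limma 3.58.1 (R 4.3.3, moderated two-sided test with trend, 1 fit of 12 libraries, Benjamini-Hochberg over 11774 genes). Fold changes are given with their standard error (SE). Wdr62 and the ratios were compared with exact permutation tests. Transcript lengths are medians over GENCODE transcripts paired with RefSeq. Members, lists and named genes were chosen with earlier results of these data known: every member is named, and values per library are given for members that passed and for the member of each role group with the highest mean over the 12 libraries, and for Fzr1, added after its values were seen as the only fold above 0 in KD. Alternatives were another pseudocount and TPM filters, median-of-ratios scaling, quantile normalization, the 2 compared groups alone, robust moderation, array weights, removal of a length trend (loess, span 0.5), a minimum fold, the replicate block, and leaving out libraries. Ratios and the overlap counts without libraries were added after the data were seen. Depth is unknown, so no counting interval is given. Protein sequences were not used here.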

Additional observations from a re-analysis of the deposited data

Results flagged for a closer look

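Of 123 groups of 4 libraries (41 genes in 3 groups), 4 held a library far from the other 3 by Dixon's 95% criterion, which chance gives in about 1 group in 20. Cdc25c stood at 23.8 TPM in KD 3 against 18.9 to 19.4 in the other KD libraries. Aurkb stood at 41.8 TPM in KD 2 against 54.2 to 56.7. Pttg1 reached 734 TPM in CON 4, with CON 1 to CON 3 between 505 and 543, and it is the shortest member, at 741 bases. Kif18b stood at 26.3 TPM in KD 1 against 20.6 to 20.8.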

How the results depend on the processing

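The number of members lower in KD than in CON (3) was 16 with median-of-ratios scaling (5.79% of all genes), 19 with quantile normalization (7.11%) and 7 with the 2 groups alone (4.13%). It was 40 with array weights (32.5%), 26 with the length correction (10.5%) and 37 without CON 4, RE 1 and RE 3 (25.1%). Without CON 4 and with the length correction it was 32 (16.5%), and with a log2 fold of at least 1 it was 1 (243 of 11774 genes). Leaving out 1 library gave 1 to 21, with 21 without CON 4 (11%), 10 without RE 3 (4.96%), and 6 without KD 3 (3.92%) or RE 4 (3.43%). RE 3 and RE 4 are in neither group, so the folds stayed the same there and only the shared estimate of spread changed. None was called higher in KD in any setting run. The number higher in RE than in KD (1) was 0 with median-of-ratios scaling (0.272% of all genes) and with the 2 groups alone (0.0849%). It was 2 with quantile normalization (0.569%), 21 with array weights (11.6%) and 4 with the length correction (0.917%). Without CON 4, RE 1 and RE 3 it was 2 (0.136%), and without CON 4 and with the length correction 18 (6.19%). Leaving out 1 library gave 0 to 5, with 5 without CON 4 (3.85%). The number lower in RE than in CON (0) was 1 with median-of-ratios scaling (4.25% of all genes) and with quantile normalization (4.3%). It was 21 with array weights (42%) and 12 without CON 4, RE 1 and RE 3 (24%). Without CON 4 and with the length correction it was 5 (18.5%). Leaving out 1 library gave 0 to 21, with 21 without CON 4 (42%). The number higher there (0) was 2 with array weights (12.2%) and 1 without the 3 libraries (8.13%). It was 2 without CON 4 with the length correction (21.3%). Leaving out 1 library gave 0 to 1, with 1 without CON 4 (10.8%). A pseudocount of 0.1, TPM filters and robust moderation moved no count by over 1.5 times. In RE against KD, 16 of the 17 folds below 0 turned above 0 with the length correction, with or without CON 4, among them Kif4 (-0.03 to 0.59), Cdc25b (to 0.32), Mki67 (to 0.87) and Top2a (to 0.51). Of those 17, 14 turned without CON 4, RE 1 and RE 3, 13 with median-of-ratios scaling and also without RE 3, and 12 with array weights and also with quantile normalization. The median over all tested genes in RE against KD moved from -0.29 to 0.02 with the length correction. The cause of these turns was not tested.

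With the replicate number of KD and RE as a block, 4 members were higher in RE than in KD (2.2% of all genes), and 0 with the block and the length correction. The numbers did not pair the libraries: same-numbered KD and RE libraries had correlations of their deviations of -0.55, 0.65, 0.24 and -0.25. No paired analysis was possible because the CON columns carry no sample number, for comparisons with CON. The table holds no depth, so counting error cannot be given.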

Other observations

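Library order within a group was shared by most members. RE 4 was the highest RE library for 36 of the 41 genes and RE 3 the lowest for 38. KD 3 was the highest KD library for 10 of the 11 members with transcripts under 2000 bases, Aurkb being the other, and for 12 of the 30 longer ones. CON 4 was the lowest CON library for 28 of those 30 and for 6 of the 11 short ones. Ranks were not counted over all tested genes, so these orders are not shown to be particular to the members. Over all tested genes under 2000 bases, the median deviation was 0.056 in KD 3. It was -0.114, -0.089 and -0.0016 in KD 1, KD 2 and KD 4. Over 3500 bases it was lowest in CON 4 (-0.73) and RE 3 (-0.91) within their groups.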
